A study of Homo sapiens with 2 samples.

Results

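The PI3K, AKT and mTOR pathway carries the signal of insulin and insulin-like growth factors from receptors at the cell surface to the growth of the cell. Its mRNAs were examined in HEK-293, a line of human embryonic kidney cells, after transfection of a miR-204 mimic. The 37 genes described were taken by name from a list made for the pathway. The rule uses no measured value, but the list was made with earlier results of these data known. They were among 30484 gene names on the array and, after the filter on signal, among 17230 gene names counted. The array lists mTOR under its older symbol FRAP1, and the other 36 names are current symbols.

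The control RNA came from HEK-293 cells that received 75 nM of scramble oligos and the other RNA from HEK-293 cells that received the miR-204 mimic, both harvested after 48 h. Both RNAs were hybridized together on 2 two-colour whole genome arrays. The first array carried the control RNA in Cy3 and the RNA of the mimic-treated cells, called the mimic RNA, in Cy5, and the dye-swap array, called the swapped array below, carried them the other way round. No second transfection is named, so the arrays were counted as 1 replicate, no test between the conditions was possible, and the spread between cultures is unknown. Every ratio below is the log2 of miR-204 over control RNA, with the swapped array turned, so that a difference between the RNAs has the same sign on both arrays while an effect of the dye, or a difference between the arrays, can give opposite signs. A population average also does not tell fewer expressing cells from less RNA in each cell.

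In this pathway, activated receptors recruit PI3-kinase, which makes a lipid at the plasma membrane to which the kinases PDPK1 and AKT bind. AKT is then phosphorylated, inhibits the glycogen synthase kinases and the tuberous sclerosis complex, and thereby permits the GTPase RHEB to activate mTOR complex 1. That complex phosphorylates the S6 kinases and the repressors of the cap-binding protein EIF4E, and AMP-activated protein kinase opposes it when energy is low. Much of this control acts on the phosphorylation of proteins, which mRNA arrays do not measure.

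The mature sequences of miR-204 are shown because the mimic was given to the treated cells where the control cells received scramble oligos. The miR-204 sequences are taken from RefSeq on GRCh38.p14, minus strand of chromosome 9, with the seed, bases 2 to 8, in capitals. The labels do not say which arm the mimic carries, and matches to the seed in the pathway's transcripts were not searched, as no UTR sequences were used.
hsa-miR-204-5p, chr9:70810031-70810052: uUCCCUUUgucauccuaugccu
hsa-miR-204-3p, chr9:70809993-70810013: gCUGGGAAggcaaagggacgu

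The cells gave signal for most markers expected of the line and for few of other cells. Of 6 genes listed for HEK-293, 5 had a probe with signal well above background in each of the 4 channels, the exception being PAX2, which was not above it in any. Of 8 genes listed for leucocytes, hepatocytes, fibroblasts and endothelium, the fibroblast collagens COL1A1 and COL3A1 had such a probe and the other 6 were not above background in any channel. Between 25284 and 29024 of 43376 spots per channel were well above background, the fewest in the mimic RNA of the swapped array. The pathway genes had 71 probes on the array, of which 59 were counted. One flagged IGF1R probe was left out, and 11 probes were not well above background in all 4 channels, 4 of these in none. Each of the 37 genes kept at least 1 probe, 26 of them a single one, and no spot of theirs was saturated.

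No pathway gene was past 2-fold in the mean of both arrays, in either direction, while 0.058% of all gene names were lower by this rule and 0.0929% higher. At 1.5-fold with the same sign on both arrays, 1 pathway gene was lower, where 1.01% of all gene names were, and 0 were higher, where 1.34% were. This gene was PIK3R3, a regulatory subunit of PI3-kinase. The sign alone was lower on both arrays for 4 of the 37 genes, against 21.6% of all gene names, and higher on both for 11, against 25.4%. With normexp background correction and loess normalization 5 were lower on both arrays and 8 higher, against 24.9% and 21.7% of all gene names. With loess and no background correction these were 5 and 7, against 24.7% and 21.4%. The remaining 22, which are 59.5% of the pathway genes, had opposite signs on the arrays, as did 53.0% of all gene names. The mean ratios lay near those of all gene names. Their median was 0.04, against 0.01 over all gene names, and 28 of the 37 genes, or 75.7%, lay within 0.25 of 0, against 76.0% of all. The pathway genes spanned means from -0.69 to 0.49.

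**Figure D1:**
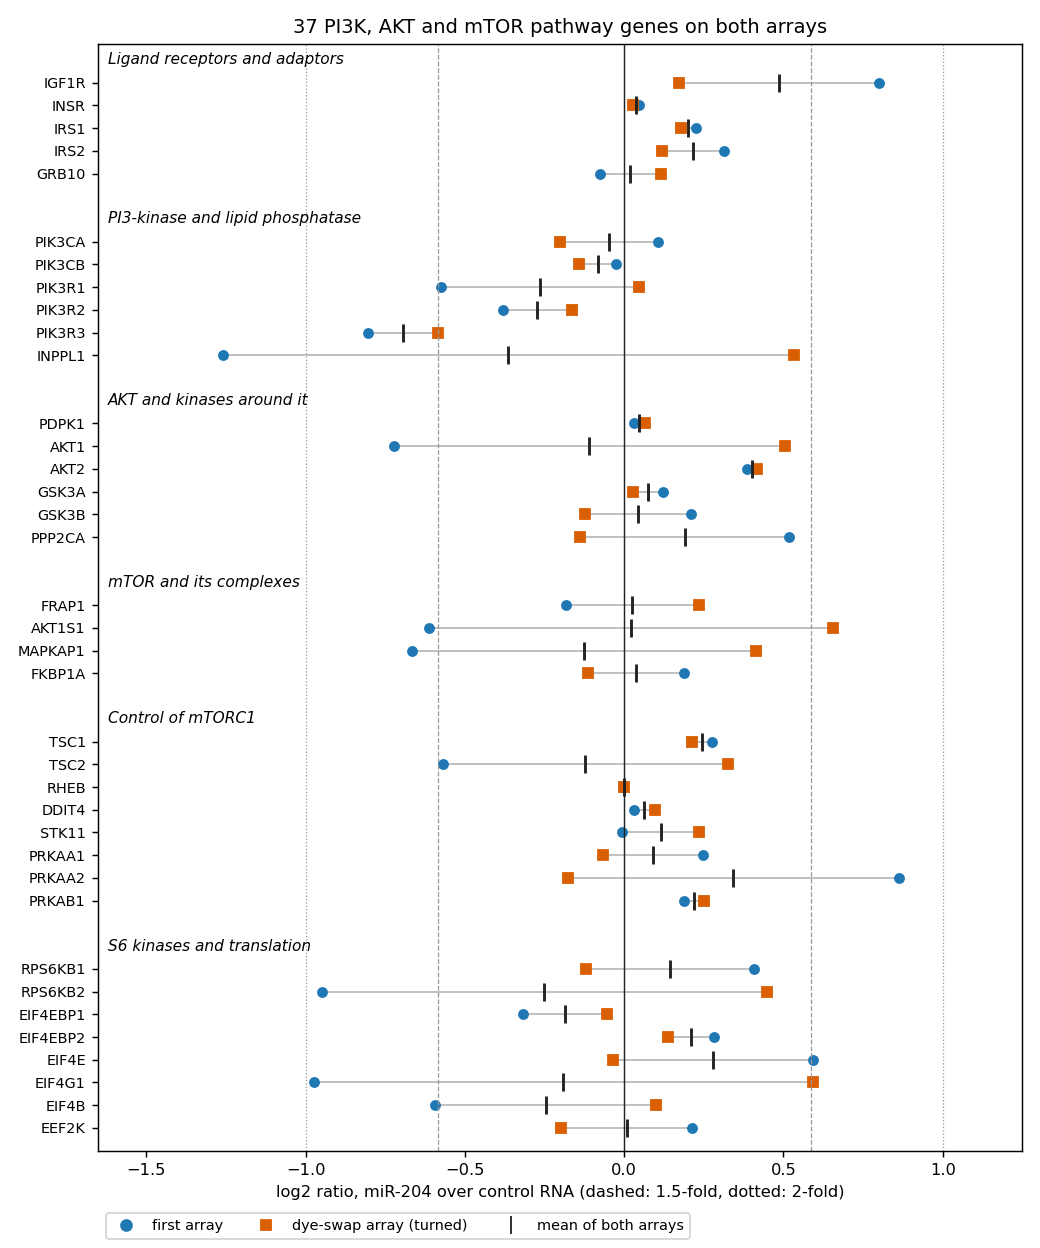
Log2 ratio of miR-204 over control RNA (x axis) for each of the 37 pathway genes (y axis), ordered by role, with circles for the first array, squares for the turned swapped array and a bar for their mean. PIK3R3 is the only gene whose mean passes the dashed line of 1.5-fold, and 22 genes have a circle and a square on opposite sides of 0.

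Of the 5 receptors and adaptors, 4 were higher on both arrays, where 25.4% of all gene names were, with a median of 0.20 in the mean. With either loess setting 2 of the 5 were, as INSR and IRS1 then had opposite signs. Of 6 other counted receptors and adaptors of the pathway, 0 were higher on both arrays and 1 was lower on both. The median of these other genes was -0.11. The receptor of insulin-like growth factor 1, IGF1R, had the highest mean of the pathway genes. Its counted probe, on chromosome 15 of hg18 from 97324889 to 97324948 on the plus strand, gave processed signals of 1710 in the control RNA and 2980 in the mimic RNA of the first array. The swapped array gave 1190 in the control RNA and 1340 in the mimic RNA. Both signals were thus higher in the mimic RNA, with a log2 ratio of 0.80 on the first and 0.17 on the swapped array. The mean was 0.49, and 2.51% of all gene names had a mean as high or higher. A second IGF1R probe, from 97318690 to 97318749, was spotted 10 times, and 2 of these spots carried an outlier flag. Over the 8 spots without a flag on the first array, its log2 ratio was -0.09 ± 0.18 (SD over spots), and over the 8 on the swapped array 0.23 ± 0.17. These are spots of 1 hybridization and not replicates. With this probe kept, the mean of IGF1R was 0.28, so that the size of its ratio rested on the choice of probe.

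The insulin receptor INSR had log2 ratios of 0.05 and 0.03 on the first and the swapped array, within 0.05 of 0 on each, and its mean was -0.0035 with normexp and loess and -0.0022 with loess and no background correction. The adaptors IRS1 and IRS2, which dock PI3-kinase to these receptors, had mean log2 ratios of 0.20 and 0.22, and each was higher on both arrays in 9 of 11 other ways of processing. IRS1 combined like ratios on both arrays with unlike signals. Its probe gave 459 in the control RNA and 538 in the mimic RNA on the first array, but 29.2 and 32.3 on the swapped array, where both RNAs were low. The log2 ratios were 0.22 and 0.18. For IRS2, the counted probe gave 0.31 and 0.12 on the arrays. A dimmer IRS2 probe stood well above background on both arrays for the control RNA and on neither for the mimic RNA, at signals of 26.4 and 14.7 in the control RNA against 20.4 and 12.1. No fold is given for it, since its bound lay under 1, and with all probes of the gene taken regardless of signal the IRS2 mean was -0.07. GRB10, an adaptor that restrains the insulin receptor, had -0.08 and 0.12 on the arrays, with a mean of 0.02.

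PI3-kinase and the lipid phosphatase INPPL1 formed the group with the lowest median, -0.27 in the mean over 6 genes. Of these genes, 3 were lower on both arrays, where 21.6% of all gene names were, and none was higher on both. With either loess setting 4 were lower on both, against 24.9% and 24.7% of all gene names. Without the filter on signal 2 were lower and 1 was higher, against 19% and 25.7%. Of 9 other counted genes of PI3-kinase and lipid phosphatases, 3 were lower and 3 higher on both arrays, with a median of -0.11. PIK3R3, one of the regulatory subunits that hold the catalytic subunit at the receptor, was the lowest of the 37 genes. Its counted probe lies on chromosome 1 of hg18 from 46294126 to 46294185 on the minus strand. The first array gave processed signals of 144 for the control and 81.3 for the mimic RNA, and the swapped array 109 and 73.4. The mimic RNA gave the lower signal in either dye. Its log2 ratios were -0.80 (first array) and -0.58 (swapped array), with a mean of -0.69, or 1.62-fold lower, the 99th lowest of 17230 gene names. A second PIK3R3 probe, from 46278386 to 46278409, ran the other way. It gave 8.51 for the control and 18.4 for the mimic RNA on the first array, and 10.5 and 16.5 on the swapped array. It was well above background in the Cy5 channel of each array and in neither Cy3 channel, and therefore in each RNA on 1 array. Both its log2 ratios were above 0, at 0.97 and 0.82, and it was not counted. With all probes taken regardless of signal, the mean of PIK3R3 was 0.10, which reverses its direction. With loess normalization PIK3R3 stayed lower on both arrays but short of 1.5-fold, at -0.32 with normexp background correction and -0.38 without background correction.

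The other regulatory subunits were also lower on the first array. PIK3R2 gave 136 in the control RNA and 103 in the mimic RNA on that array, and 94.6 and 84.6 on the swapped array. These are log2 ratios of -0.38 and -0.16, lower on both, with a mean of -0.27. PIK3R1 had -0.57 on the first array and 0.05 on the swapped array, so that its mean of -0.26 came from the first array. It was lower on both arrays in 3 of 11 other ways of processing, among them both loess settings. Another PIK3R1 probe, not well above background in any channel, was not counted. With all probes taken regardless of signal, the mean of PIK3R1 was -0.01. Of the catalytic subunits, PIK3CB gave 64.4 and 62.3 on the first array and 39.8 and 35.9 on the swapped array, in the order control and miR-204. Its log2 ratios of -0.03 and -0.14 were lower on both arrays and small on the first. PIK3CA, the alpha catalytic subunit, had 0.11 and -0.20. The lipid phosphatase INPPL1, which removes a phosphate from the lipid that PI3-kinase makes, had the widest difference between the arrays. Its signal was 1560 for the control and 650 for the mimic RNA on the first array, and 671 and 964 on the swapped array. The Cy5 signal was the lower one each time. Its log2 ratios were -1.26 and 0.53, and it was the only pathway gene lower past 2-fold on the first array alone.

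Among AKT and the kinases around it, AKT1 had opposite signs on the arrays and AKT2 the same sign. AKT1, the widely expressed isoform, was read by 1 probe in 10 spots, on chromosome 14 of hg18 from 104310325 to 104310384 on the minus strand. Its mean signal was 233 for the control and 140 for the mimic RNA on the first array, and 104 and 148 on the swapped array. The lower signal was in Cy5 on both arrays, whichever RNA that dye labelled. The first array gave a log2 ratio of -0.72 ± 0.10 (SD over 10 spots) and the swapped array 0.51 ± 0.14. All 10 spots were below 0 on the first array and above 0 on the swapped array, ranging from -0.86 to -0.59 and from 0.28 to 0.74. The spots measure the precision within an array and are not replicates. The mean of both arrays was -0.11, and with the series table of the study in place of the scanner signals it was 0.01.

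AKT2, the isoform best known for its part in the response to insulin, was higher in the mimic RNA on both arrays, at 0.39 and 0.42, with a mean of 0.40. Its 3 probes lie on chromosome 19 of hg18, minus strand. The probe from 45430137 to 45430196 gave 9090 in the control RNA and 15800 in the mimic RNA on the first array, and 8750 and 10300 on the swapped array. The probe from 45430543 to 45430602 gave 675 and 872 on the first array, and 502 and 804 on the swapped array. The mean log2 ratios of these probes were 0.53 and 0.52, each higher on both arrays. The third probe, from 45432823 to 45432882, gave 64.5 and 61.9 on the first array, where the RNAs were nearly level, and 53.6 and 67.5 on the swapped array. Its mean was 0.15. Over 11 other ways of processing both arrays, 3 of which left its value as it was, the gene mean lay between 0.34 and 0.53 and AKT2 was higher on both arrays. A mean as high as that of AKT2 or higher was found for 4.38% of all gene names.

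PDPK1, the kinase that phosphorylates AKT in its activation loop, was close to 0 in the mean, at 0.05. Its 3 probes differed in sign, with mean log2 ratios of -0.05, 0.07 and 0.12. The glycogen synthase kinases, which AKT inhibits, were also near 0. GSK3A had 0.12 and 0.03 on the arrays. GSK3B, spotted 10 times, had 0.21 ± 0.05 (SD over 10 spots) and -0.12 ± 0.07, opposite in sign. PPP2CA, the catalytic subunit of a phosphatase that acts on AKT, had 0.52 on the first and -0.14 on the swapped array, and its 2 probes had nearly the same mean, 0.19 each.

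All 4 genes listed under mTOR and its complexes had opposite signs on the arrays, as did 53.0% of all gene names and 71.4% of the 7 other counted genes of these complexes. For FKBP1A, which binds rapamycin, the opposite signs of the gene rested on 1 probe, as given below. FRAP1, which encodes the mTOR kinase itself, was read by a probe on chromosome 1 of hg18 from 11090079 to 11090138 on the minus strand. It gave 2210 in the control RNA and 1930 in the mimic RNA on the first array, and 1430 and 1700 on the swapped array. The order of the RNAs changed between the arrays. The log2 ratios were -0.18 and 0.23, with a mean of 0.03, which 53.6% of all gene names had or were below. AKT1S1, an inhibitor of mTOR complex 1 that AKT phosphorylates, had -0.61 and 0.66. MAPKAP1, a subunit of mTOR complex 2, had -0.67 and 0.42, and both its probes showed this change of sign.

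FKBP1A, the protein through which rapamycin binds mTOR, had the widest disagreement between counted probes of a pathway gene. All 4 of its probes lie on chromosome 20 of hg18, minus strand. The probe from 1304137 to 1304196 gave 448 in the control RNA and 1220 in the mimic RNA on the first array, but 359 and 341 on the swapped array. Its log2 ratios were 1.44 and -0.06, so that its mean of 0.69 came from 1 array. The other 3 probes had means of -0.12, -0.16 and -0.25, and none of them was above 0 on the first array. The probe at -0.12 had -0.38 and 0.13. Lower on both arrays were the probe at -0.16, with -0.01 and -0.31, and that at -0.25, with -0.29 and -0.21. The gene mean over the 4 probes was 0.04, and with the brightest probe alone it was -0.12. FKBP1A also has 4 named pseudogenes in RefSeq, with which its probes may share signal.

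**Figure D2:**
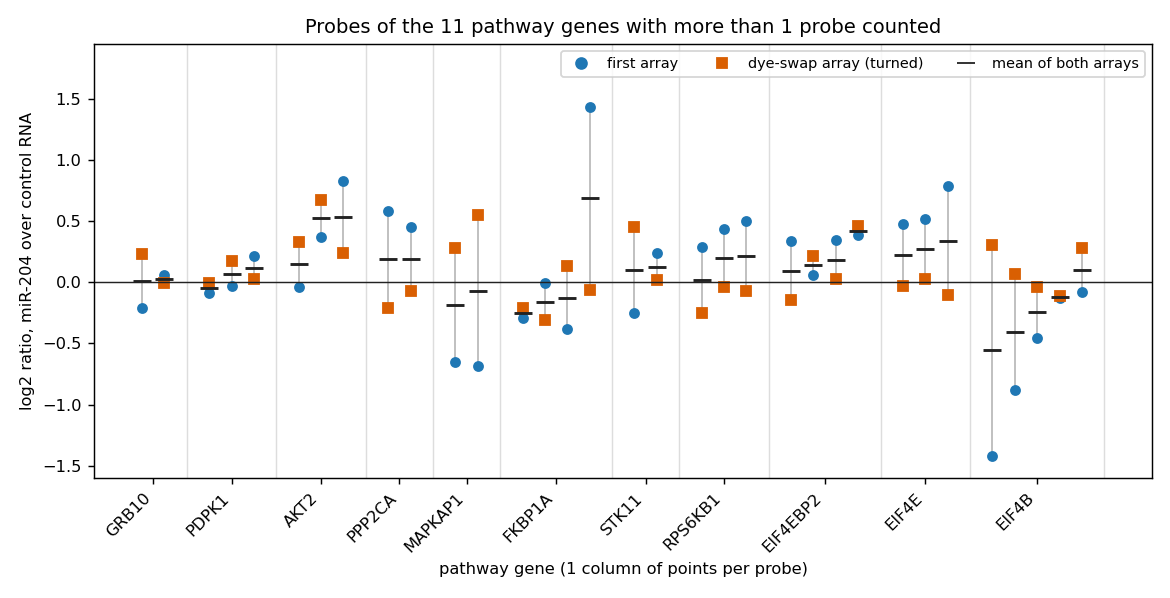
Log2 ratio of miR-204 over control RNA (y axis) for each counted probe of the 11 pathway genes with more than 1 counted probe (x axis), with circles for the first array, squares for the turned swapped array and bars for their mean. The probe means of FKBP1A run from -0.25 to 0.69 and those of EIF4B from -0.56 to 0.10, while the 3 AKT2 means all lie above 0.

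The genes that control mTOR complex 1 included 3 of 8 that were higher on both arrays, against 25.4% of all gene names, and none that was lower on both. With loess and no background correction 2 were higher on both. TSC1, which stabilizes the tuberous sclerosis complex, was read by a probe on chromosome 9 of hg18 from 134756632 to 134756691 on the minus strand. It gave 710 in the control RNA and 861 in the mimic RNA on the first array, and 498 and 576 on the swapped array. The mimic RNA gave the higher signal in either dye, with log2 ratios of 0.27 and 0.21 and a mean of 0.24. With quantile normalization of the ratios in place of the channels this mean was 0.38, and with loess it was 0.16 both with normexp and without background correction. Its partner TSC2, which carries the activity that turns RHEB off, had -0.57 and 0.33, lower in Cy5 on both arrays. RHEB itself was level in both RNAs. Its log2 ratio rounded to 0.00 on each array, and a dimmer RHEB probe was not counted. DDIT4, a stress-induced inhibitor of mTOR complex 1, had 0.03 and 0.10.

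AMP-activated protein kinase and its activator STK11 were represented by 4 genes. The beta subunit PRKAB1 was higher on both arrays. It gave 529 in the control RNA and 605 in the mimic RNA on the first array, and 348 and 413 on the swapped array. These are log2 ratios of 0.19 and 0.25, with a mean of 0.22. The alpha subunits PRKAA1 and PRKAA2, which hold the kinase domain, were higher on the first array and lower on the swapped array. For PRKAA1 the log2 ratios were 0.25 and -0.07, and for PRKAA2 0.86 and -0.18. PRKAA2 thus had a mean of 0.34 that came from the first array. Of its dimmer probes, which were not counted, A_23_P52109 had 1.03 and 0.47 and A_23_P60811 had -0.05 and -0.07. With all probes taken regardless of signal, PRKAA2 had 0.61 and 0.08 on the arrays. STK11 had -0.01 and 0.23.

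Of the 8 genes of the S6 kinases and of translation, 6 had opposite signs on the arrays, against 53.0% of all gene names. RPS6KB1, the S6 kinase that mTOR complex 1 activates, had 3 counted probes on chromosome 17 of hg18, plus strand. The probe from 55379192 to 55379251 gave 1010 in the control RNA and 1440 in the mimic RNA on the first array, and 764 and 728 on the swapped array. The probe from 55379179 to 55379238, which overlaps it, gave 907 and 1230, then 660 and 642. The third, from 55382292 to 55382351, gave 1340 and 1650, then 1140 and 960. Each probe was higher in the mimic RNA on the first array and lower on the swapped array. The gene's log2 ratios were 0.41 and -0.12, with a mean of 0.14. RPS6KB2, the second S6 kinase, changed sign the other way. Its signal was 230 for the control and 118 for the mimic RNA on the first array, and 116 and 159 on the swapped array. The log2 ratios of -0.95 and 0.45 had a mean of -0.25.

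EIF4EBP1, a repressor of EIF4E that mTOR complex 1 inactivates, was lower on both arrays. Its probe lies on the plus strand of chromosome 8 of hg18 from 38036875 to 38036934. It gave 13000 in the control RNA and 10300 in the mimic RNA on the first array, and 8430 and 8040 on the swapped array. The RNAs were nearly level on the swapped array. The log2 ratios were -0.32 and -0.05, with a mean of -0.18, and 17.9% of all gene names had a mean at or below it. Over the 11 other ways of processing it lay between -0.21 and -0.17, with lower ratios on both arrays. As it has 1 probe, 4 of these settings left its value as it was, and the others gave 6 distinct values. EIF4EBP2, a second repressor of EIF4E, lay on the other side of 0, at 0.28 and 0.14. All 4 of its probes had a mean above 0, from 0.09 to 0.42.

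The translation factors differed between the arrays. EIF4E, the cap-binding protein, had 0.59 on the first array and -0.04 on the swapped array, and its 3 probes had means from 0.22 to 0.34. EIF4G1, the scaffold that joins EIF4E to the ribosome, gave 6830 in the control RNA and 3490 in the mimic RNA on the first array, and 3360 and 5060 on the swapped array. The lower signal was again in Cy5, and the log2 ratios were -0.98 and 0.59. EIF4B, a cofactor of the helicase that unwinds the start of the mRNA, had -0.59 and 0.10. Its 5 probes had means of -0.56, -0.41, -0.25, -0.12 and 0.10. The probe at -0.56 had -1.42 on the first array and 0.31 on the swapped array. The probe at -0.12 was lower on both, at -0.13 and -0.11, and so was the probe at -0.25, at -0.45 and -0.04. EEF2K, the kinase that slows elongation, had 0.21 and -0.20. RefSeq names 9 pseudogenes of EIF4B, 5 of EIF4E, 3 of RHEB, 3 of EIF4EBP2 and 2 of EIF4EBP1, so that shared signal cannot be told apart for these genes.

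The pathway genes were spread more widely than all gene names on the first array and not on the swapped array. The SD of the log2 ratios over genes was 0.51 on the first array, against 0.41 for all gene names, and 0.26 on the swapped array, against 0.27. The pattern of lower on the first array with higher on the swapped array held for 13 genes, or 35.1%, against 25.6% of all. The reverse held for 9 genes, or 24.3%, against 27.3%. Across the 37 genes the ratios of the arrays correlated at -0.43 (Pearson) and -0.37 (Spearman), against -0.08 and -0.07 across all gene names. The wide spread and the negative correlations were not particular to the 37 genes. For 66 other counted genes of the pathway, described below, the SD was 0.49 on the first and 0.25 on the swapped array. Their correlations were -0.32 (Pearson) and -0.28 (Spearman). Each pattern of opposite signs held for 25.8% of them, near the shares of all gene names. All these correlations are descriptions across genes that share the arrays and dyes, and genes are not independent replicates.

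The difference between the arrays was summarized as the first array minus the turned swapped array, divided by the number of arrays. With 1 array in each orientation of the dyes, it holds any effect of the dye together with any other difference between the hybridizations, and these cannot be told apart. The genes with the most negative values read lower in Cy5 than in Cy3 on both arrays. INPPL1 had -0.90, at or below which lay 0.476% of all gene names. It was -0.78 for EIF4G1, which 0.871% of all gene names had or were below, and -0.70 for RPS6KB2, where this share was 1.40%. AKT1S1 at -0.63, AKT1 at -0.61, MAPKAP1 at -0.54 and TSC2 at -0.45 followed. The largest value of the opposite sign was that of PRKAA2, at 0.52.

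**Figure D3:**
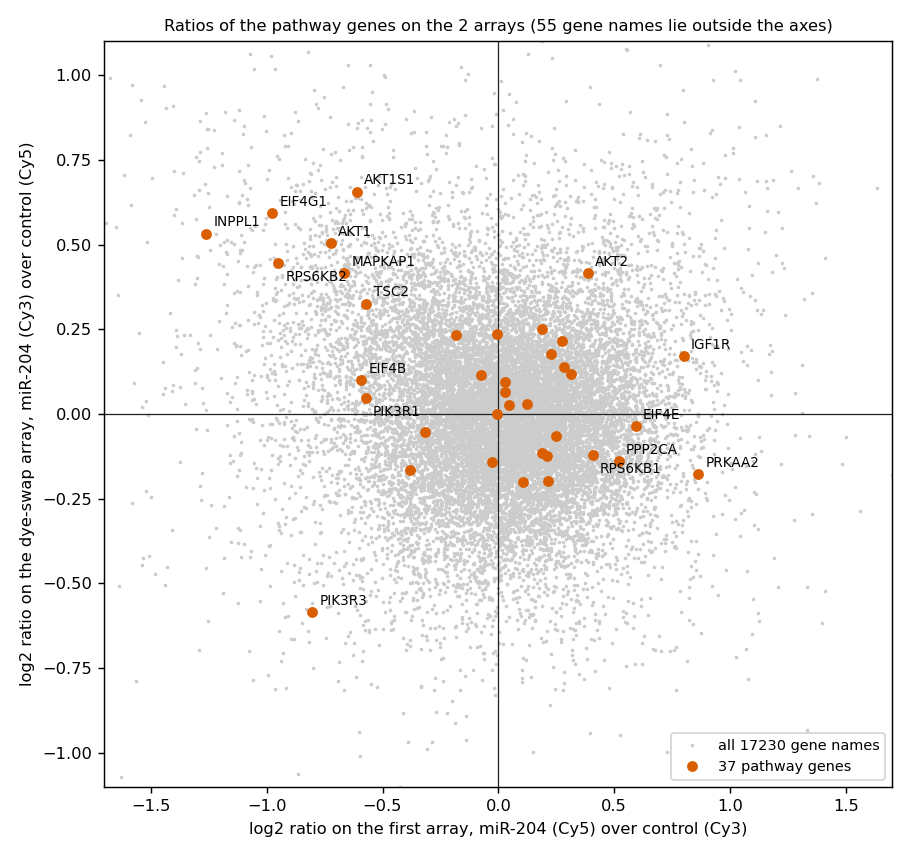
Log2 ratio of miR-204 over control RNA on the first array (x axis) against that on the turned swapped array (y axis), with the 37 pathway genes as large points and all 17230 gene names as small grey points, of which 55 lie outside the axes. INPPL1, EIF4G1, RPS6KB2, AKT1, AKT1S1, MAPKAP1 and TSC2 lie at the upper left, where Cy5 read lower on both arrays, while PIK3R3 lies at the lower left and AKT2 and IGF1R at the upper right.

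A list of 76 other genes of the same pathway gave 66 counted gene names. Of these, 17 were lower on both arrays, 15 were higher on both and 34, or 51.5%, had opposite signs, against 21.6%, 25.4% and 53.0% of all gene names. Their median was -0.03, against 0.04 for the 37 genes and 0.01 for all gene names. A single gene was lower past 2-fold, PRKAG1, a gamma subunit of AMP-activated protein kinase, where 0.058% of all gene names were. It was also the only gene lower past 1.5-fold, where 1.01% of all gene names were. None was higher past 2-fold or 1.5-fold, where 0.0929% and 1.34% of all gene names were. PRKAG1 had -2.15 on the first array and -0.07 on the swapped array, so that its mean of -1.11 came from 1 array. Among those of like sign on both arrays, the next lowest were the lipid phosphatase INPP4A at -0.39, with -0.42 and -0.37 on the arrays, and TELO2, a partner in the assembly of mTOR, at -0.36. The highest were SESN1, a stress-induced inhibitor of mTOR complex 1, at 0.49, the AKT-related kinase SGK (now SGK1) at 0.26 and the translation factor EIF4G2 at 0.25. SESN1 had 0.82 and 0.16. Of the other subunits of mTOR complex 1, the files' KIAA1303 (now RPTOR) had a mean of -0.02 and GBL (now MLST8) of -0.02, with -0.72 and 0.69 on the arrays for GBL. These 2 genes were chosen for their place in the pathway after their values were seen.

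How far the ratios of 12 of the pathway genes depend on the processing is shown across 11 other ways of treating both arrays. These settings are not independent, as the log ratio column gives the processed signals again and, for a gene with 1 probe on the array, 4 settings that change the choice of probes cannot alter the value. Of these 12 genes, PIK3R2, EIF4EBP1, AKT2, IGF1R, TSC1 and PRKAB1 had the same sign on both arrays in the 11 settings. PIK3CB did so in 10 and PIK3R3 was lower on both arrays in 10 and past 1.5-fold in 8. AKT1, FRAP1, RPS6KB1 and RPS6KB2 had opposite signs on the arrays in the 11. Of the pathway genes not shown, EIF4EBP2 was higher on both arrays in the 11, and GSK3A and DDIT4 were in 10.

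**Figure D4:**
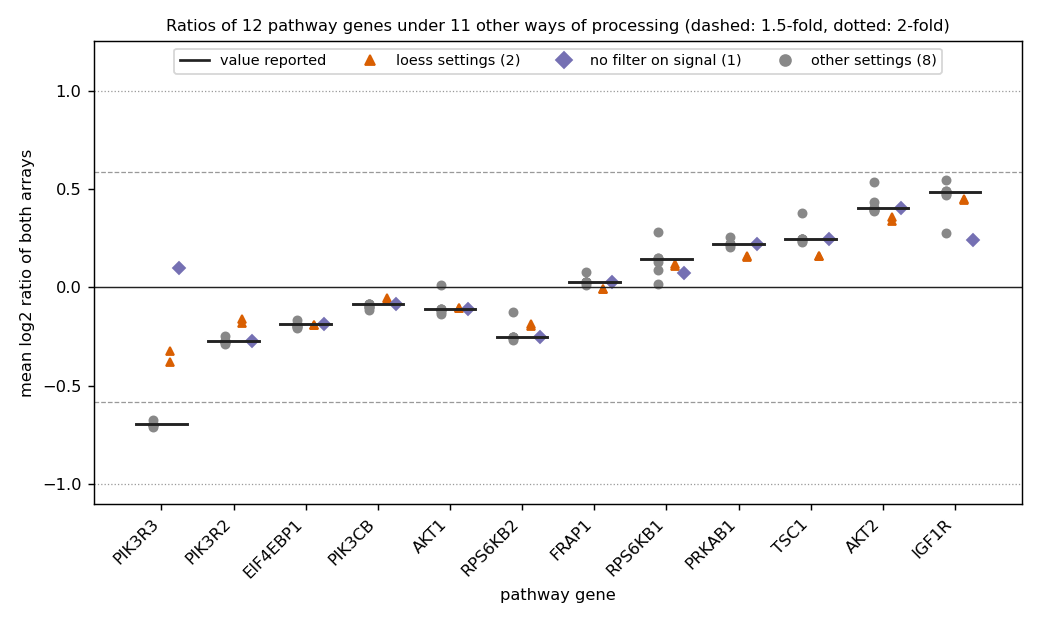
Mean log2 ratio of both arrays (y axis) for 12 pathway genes (x axis) as reported (bar) and under 11 other ways of processing, with triangles for the 2 settings with loess, a diamond for the setting without a filter on signal and circles for the other 8. The diamond of PIK3R3 lies at 0.10, above 0, its triangles lie at -0.32 and -0.38, and AKT2 stays between 0.34 and 0.53.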

How the data were processed

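RNA was measured on 2 arrays, each read in Cy3 and Cy5. Per the file headers, Feature Extraction 9.5.3.1 read the scans. Processed signals deposited by the authors are intensity values corrected for background and dye, and the mean and background signals deposited beside them are uncorrected intensity values. A log10 ratio of Cy5 to Cy3 was also deposited. The authors' series table holds log2 ratios, which correlated at 0.993 and 0.994 with the log ratios turned to miR-204 over control, with medians of 0.0085 and -0.018. The p-value column of the authors' software was not used.

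Control spots and 128 outlier-flagged probes were left out. Log2 processed signals were quantile normalized over the 4 channels with limma 3.58.1 in R 4.3.3, spots of a probe were averaged, and a gene is the mean of its probes well above background in all 4 channels (23159 of 41000 probes). Calls need the mean past 2-fold or 1.5-fold (0.585 in log2) and 1 sign on both arrays. Tables were made in Python 3.11.15 with pandas 2.3.3, numpy 2.4.6 and scipy 1.17.1, and the steps were tested on simulated data. Probes are placed on hg18 as in the files, where exons and UTRs were not annotated here. Precision is limited by the small number of arrays.

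The 37 genes, their roles, the 76 other pathway genes and the marker lists were chosen with earlier results of these data known. All 37 were to be named, with full signals for AKT1, AKT2, FRAP1, EIF4EBP1, RPS6KB1 and RPS6KB2, for genes past 1.5-fold and for the 4 lowest and 4 highest with 1 sign on both arrays, and by probe where probes differed in sign or by over 0.5. Signals of INPPL1, IRS1 and EIF4G1 were added after their values were seen. The methods' t-test and limma's test were run over arrays that are 1 replicate and do not compare the conditions. Unadjusted, the methods' t-test passed for 3 of the 37 genes (INSR, PIK3R3 and TSC1) and 1107 of all gene names, and limma's for PIK3R3 and 729 of all. After Benjamini-Hochberg adjustment both passed 0 of all gene names.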

Additional observations from a re-analysis of the deposited data

How the results depend on the processing

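The counts were recomputed under 11 alternatives with both arrays and 2 with 1 array. The 2-fold counts were also taken at 2-fold on each array and with the methods' t-test and limma, before and after adjustment, and were 0 in each. These 0 counts were fixed in advance, since each such rule only narrows a count that was already 0. No gene was lower past 1.5-fold with normexp and loess, with loess and no background correction, without the filter on signal or without the first array (0 each, against 1, PIK3R3), and 8 were without the dye-swap array. Without the filter PIK3R3 reversed to 0.10, as its second probe then enters. Genes higher on both arrays numbered 7 with loess and no background correction, against 11, where 21.4% and 25.4% of all gene names were. Without the dye-swap array 1 gene was lower past 2-fold (INPPL1) and 3 were higher past 1.5-fold, where 1.64% and 5.75% of all gene names were, and 7.57% were lower past 1.5-fold. Without the first array 2 were higher past 1.5-fold, where 2.72% of all gene names were, and the median was 0.0953, against 0.0371. The cause of the changes with loess was not tested. The single-array counts use fewer data and no longer require 1 sign on both arrays. With both arrays, 83 of the other count and median values stayed within the spread or within 1.5 times. Among the 83 are the 2-fold counts under narrower rules, which could not change. Of the genes' mean ratios with both arrays, 373 stayed within the SD between the arrays and 33 moved by more. This SD can be wide where the arrays had opposite signs, at 1.27 for INPPL1 and 0.87 for AKT1. Values within it therefore include changes of sign, as for AKT1 at 0.01 with the series table, against -0.11. Settings on the choice of probes cannot change genes with 1 probe and are among the 373. Over all gene names 174 were lower and 231 higher past 1.5-fold, and 68 and 27 with normexp and loess. Both the background correction and the normalization differ there. No paired analysis was possible because each RNA was represented by 1 replicate only. Signal near background limits the second PIK3R3 probe and dim probes of IRS2, PRKAA2 and EEF2K, and all values are limited by the lack of a second culture.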
